A study of Mus musculus with 12 samples.

Results

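Genes that mark T cells and cytotoxic lymphocytes were followed in 12 mouse rhabdoid tumors. They were chosen by name and make up 10 of the 24060 genes listed for each tumor. Cd3e, Cd4, Cd8a and Foxp3 mark T cells and their subsets, Gzmb, Prf1 and Nkg7 belong to the killing machinery, and Pdcd1, Cd274 and Ctla4 encode checkpoint molecules. All tumors arose in P0-CreC;Smarcb1flox/flox mice on the FVB/N background, in which Cre driven by the P0 (myelin protein zero) promoter removes the SWI/SNF subunit gene Smarcb1 from early neural crest cells. No normal tissue or other genotype was analysed here, so each group carries the same alleles. The groups are set by where the tumor grew. They also differ in the first digits of the tumor titles, whose meaning the labels do not give. By the labels, 4 tumors were retro-orbital, 3 came from the cheek, 3 from the meninges, 1 from the vestibular nerve and 1 from the trigeminal nerve. The age and sex of the mice are not given in the labels. RNA of whole dissected tumors was sequenced after depletion of ribosomal RNA, and the values are RPKM, read numbers divided by transcript length and by the mapped reads of the tumor, a level per length that allows genes to be set side by side.

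T cells carry the CD3 complex beside their antigen receptor, and the co-receptors CD4 and CD8 divide them into helper and killer cells. Killer T cells and natural killer cells store perforin and granzymes in granules and release them onto target cells. The checkpoint receptors PD-1 and CTLA-4 restrain activated T cells, and PD-L1, the ligand of PD-1, is made by macrophages, dendritic cells and many tumor cells, above all under interferon gamma.

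Low RPKM values were whole multiples of the worth of a single fragment, from which totals of 13206168 (cheek tumor 3) to 57128422 fragments (retro-orbital tumor 3) were recovered. For Pdcd1 and Ctla4 an annotated transcript length gave whole fragment numbers. For the other members none did, and the smallest length that gave whole numbers was used. Their fragment numbers are therefore the fewest that the values allow. In retro-orbital tumor 3, the deepest library, 42 genes lay at 1 to 5 fragments and 53 at 11 to 15, a ratio of 0.792, whereas in the other 11 tumors this ratio was 2.74 to 8.37. Where this comes from was not tested, and results that rest on that tumor are also given without it. Cheek tumors 2 and 3 share the leading digits of their titles, as do cheek tumor 1 and meninges tumor 1, and retro-orbital tumor 3 and the trigeminal tumor. The labels do not say what the digits mean, so these tumors may come from 1 mouse or litter, and p-values then measure a spread that is partly shared. Smarcb1, the targeted gene, was at 1.70 to 6.31 RPKM in the 12 tumors, without a wild-type sample beside them. Macrophage genes were far above the T cell genes (C1qa, a complement component made by macrophages, had a median of 438 RPKM), and the sum of the 12 macrophage markers was 859 to 1015 RPKM in the cheek, 1150 to 3064 in the retro-orbital and 1270 to 2085 in the meninges tumors. In whole-tumor RNA, fewer cells of a type and less RNA per cell cannot be told apart.

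Cd3e, a signalling subunit of the T cell receptor complex, was low in all 12 tumors, with a median of 0.663 RPKM. It was at 0.643, 0.261, 1.41 and 3.06 RPKM in retro-orbital tumors 1 to 4, at 0.295, 0.213 and 0.0527 in cheek tumors 1 to 3, and at 0.683, 1.43 and 1.29 in meninges tumors 1 to 3. The vestibular tumor had 0.0735 RPKM and the trigeminal tumor 0.822 RPKM. Every meninges tumor lay above every cheek tumor, and the retro-orbital tumors spanned both. The values of cheek tumor 3 and the vestibular tumor rest on as few as 1 and 3 fragments, at or under the limit of 3 fragments that a count of 0 allows. The cheek, the vestibular and retro-orbital tumor 2 thus formed the low end, where the lowest values rest on few fragments and are imprecise. The gene lies on chromosome 9 at 44998740 to 45009627 on the minus strand (GRCm38, GENCODE M21), and 2 annotated noncoding genes overlap it.

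Cd4, the helper co-receptor that some dendritic cells also carry, was the most abundant of the 4 T cell markers, with a median of 4.52 RPKM. The retro-orbital tumors held both the lowest and the highest value, with 1.63, 0.209, 5.82 and 13.1 RPKM. The cheek tumors had 4.88, 1.36 and 1.61 RPKM, the meninges tumors 4.16, 5.05 and 5.34 RPKM, the vestibular tumor 8.45 RPKM and the trigeminal tumor 2.55 RPKM. The groups overlapped throughout. Cd4 did not keep a fixed level beside Cd3e. In the vestibular tumor, Cd4 had its second highest level among the 12 tumors while Cd3e rested on 3 fragments, and in retro-orbital tumor 2 Cd4 was below Cd3e, with a ratio of 0.801.

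Cd8a, the co-receptor of killer T cells, stayed below 1 RPKM in each of the 12 tumors. Its values were 0.201, 0.141, 0.302 and 0.883 RPKM in the retro-orbital, 0.259, 0.0294 and 0.0968 in the cheek, 0.314, 0.935 and 0.395 in the meninges, 0.0787 in the vestibular and 0.211 in the trigeminal tumor. All 3 meninges tumors were above all 3 cheek tumors. The 2 highest tumors, meninges 2 and retro-orbital 4, were also the 2 highest in Cd3e and the 2 highest in Nkg7. Per length, Cd4 exceeded Cd8a in all 12 tumors.

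Foxp3, the transcription factor of regulatory T cells, varied least of the 10 genes, by 4.6 times between its lowest and highest tumor. It was at 1.05, 0.442, 1.63 and 2.03 RPKM in the retro-orbital tumors, at 1.01, 0.687 and 0.752 in the cheek tumors, at 1.5, 0.920 and 1.70 in the meninges tumors, at 0.573 in the vestibular and at 1.39 in the trigeminal tumor. The groups overlapped, and Foxp3 was above Cd3e in 10 of the 12 tumors. Foxp3 (X:7573644 to 7595245, plus strand) overlaps the protein-coding genes Ppp1r3f and Ccdc22 on the opposite strand and Flicr on its own strand. Whether reads were assigned by strand is not stated in the sources used here, so the part of these genes in the Foxp3 values was not tested.

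Gzmb, which encodes the protease granzyme B, peaked in retro-orbital tumor 2. Retro-orbital tumors 1 to 4 held 0.730, 6.25, 0.396 and 2.19 RPKM, the cheek tumors 1.82, 0.0866 and 0.321 RPKM, and the meninges tumors 1.0, 1.66 and 1.39 RPKM. The vestibular tumor had 0.199 RPKM and the trigeminal tumor 2.0 RPKM. The 3 meninges tumors were close to each other and the other locations were not, and the meninges tumors lay within the range of the retro-orbital tumors.

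Prf1, the pore-forming protein that lets granzymes into the target cell, peaked in that same tumor. The retro-orbital tumors had 0, 3.99, 0.111 and 0.602 RPKM, the cheek tumors 0.687, 0.0746 and 0.0737 RPKM, the meninges tumors 0.531, 0.370 and 0.246 RPKM, the vestibular tumor 0.154 RPKM and the trigeminal tumor 0.759 RPKM. In retro-orbital tumor 2 Gzmb rested on 260 fragments and Prf1 on 241, so counting error is small there. Cd3e in that tumor rested on 11 fragments and Cd8a on 13. The tumor also held the highest Cd68, a lysosomal protein of macrophages, at 244 RPKM against 45.4 to 137 RPKM in the other 11. The natural killer cell receptor gene Ncr1 was at 0.907 RPKM there, below its level in retro-orbital tumor 4 (1.97 RPKM). The part of these cell types in the Gzmb and Prf1 peak was not tested.

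Nkg7, a granule membrane protein of natural killer and killer T cells, was listed at 0 in 3 tumors. The retro-orbital tumors had 0.182, 0.544, 0 and 2.12 RPKM, the cheek tumors 0.217, 0 and 0 RPKM, the meninges tumors 0.849, 2.06 and 0.484 RPKM, the vestibular tumor 0.520 RPKM and the trigeminal tumor 0.407 RPKM. Each meninges tumor was above each cheek tumor. Nkg7 is short, so 3 fragments are worth 0.0646 to 0.279 RPKM depending on the tumor, at the smallest length that gave whole numbers. A value of 0 still allows a level up to that limit. Retro-orbital tumor 3, among the tumors at 0, is also the library with few genes at low fragment numbers. The limit covers counting error only, so a higher level in that tumor is not excluded.

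Pdcd1, which encodes PD-1, had its highest mean in the meninges tumors. The meninges tumors had 7.72, 2.46 and 2.74 RPKM, the retro-orbital tumors 1.32, 0.335, 0.880 and 2.48 RPKM, and the cheek tumors 0.548, 0.0318 and 0 RPKM. The vestibular tumor had 0.383 RPKM and the trigeminal tumor 1.69 RPKM. All meninges tumors were above all cheek tumors, and meninges tumor 2 lay just under retro-orbital tumor 4. The mean was 4.31 ± 2.96 RPKM (SD, n = 3) in the meninges, 1.25 ± 0.910 (SD, n = 4) in the retro-orbital and 0.193 ± 0.308 (SD, n = 3) in the cheek tumors.

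Cd274, which encodes PD-L1, had the highest median of the 10 genes, 5.6 RPKM, above that of 62.6% of all genes. The retro-orbital tumors had 6.88, 3.45, 17.6 and 11.7 RPKM, the meninges tumors 6.81, 5.54 and 5.67 RPKM, and the cheek tumors 1.75, 0.345 and 0.645 RPKM. The vestibular tumor, at 1.65 RPKM, lay in the range of the cheek tumors, and the trigeminal tumor, at 6.18 RPKM, in that of the meninges tumors. Cd274 was the only member for which the cheek tumors lay below every retro-orbital and every meninges tumor. The means were 9.90 ± 6.14 RPKM (SD, n = 4) in the retro-orbital, 6.01 ± 0.702 (SD, n = 3) in the meninges and 0.912 ± 0.737 (SD, n = 3) in the cheek tumors. Each of its 12 values rests on at least 31 fragments, so the cheek level was not a limit of depth.

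Ctla4, the receptor that competes with CD28 for its ligands, was split among the retro-orbital tumors. Tumors 1 and 2 had 0.516 and 0.546 RPKM and tumors 3 and 4 had 13.5 and 9.76 RPKM. The cheek tumors had 0.949, 0.0634 and 0 RPKM, the meninges tumors 0.846, 0.787 and 1.69 RPKM, the vestibular tumor 0.0182 RPKM and the trigeminal tumor 1.08 RPKM. Retro-orbital tumors 3 and 4 thus lay above the other 10 tumors, which overlapped across locations. In tumor 3 Ctla4 was 8.25 times Foxp3 and in tumor 4 it was 4.81 times Foxp3. Tumors 1 and 2 share their title start (the first 2 digits, a coarser grouping than the shared leading digits above), and so do tumors 3 and 4, so among these tumors the split and the title start cannot be told apart. Meninges tumors 2 and 3 and the trigeminal tumor have the title start of retro-orbital tumors 3 and 4, with Ctla4 at 0.787, 1.69 and 1.08 RPKM. Cheek tumor 1 and meninges tumor 1 have that of retro-orbital tumors 1 and 2, with 0.949 and 0.846 RPKM. Retro-orbital tumor 3 is also the library with few genes at low fragment numbers, and the processed pseudogene Rpl18-ps1 overlaps Ctla4 on the same strand over 525 bases. Their part in the Ctla4 level was not tested.

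**Figure D1:**
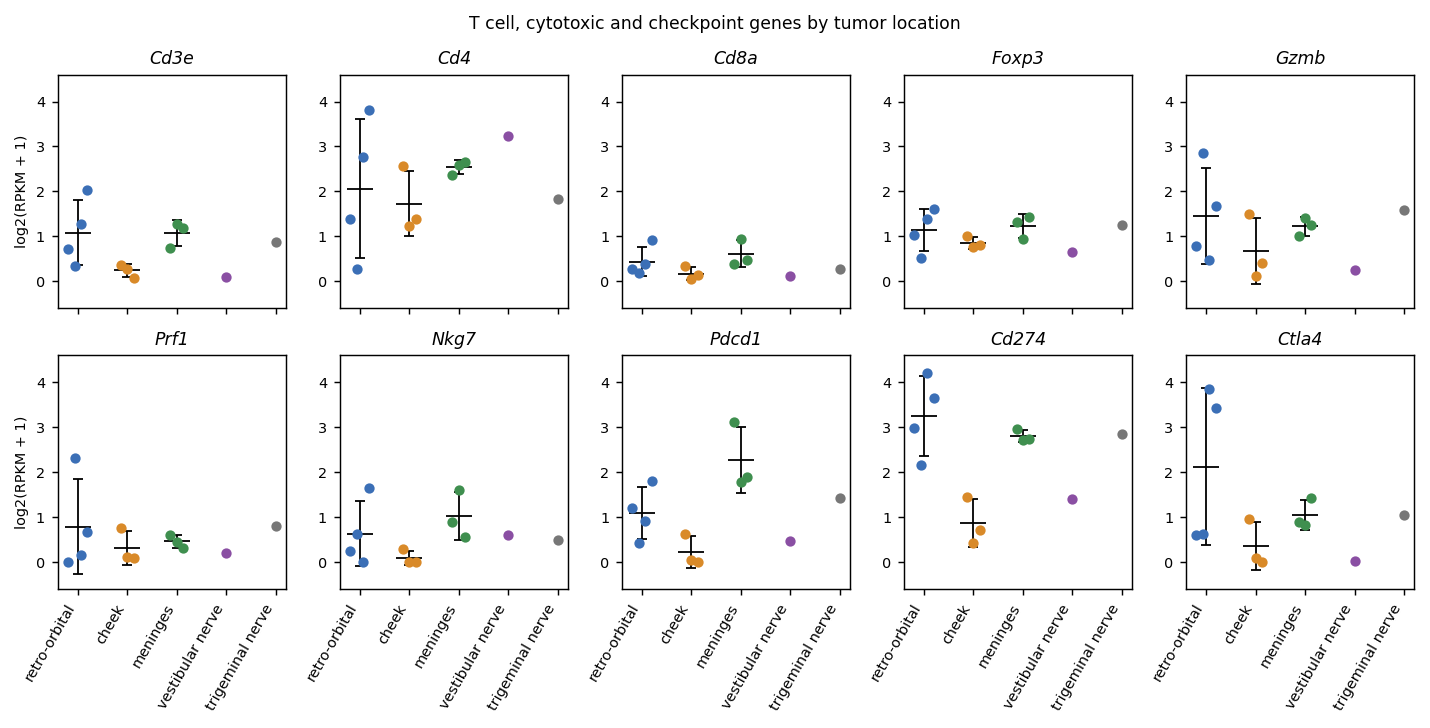
Level of each of the 10 genes, log2(RPKM + 1) on the vertical axis, by tumor location on the horizontal axis. Each point is 1 tumor, and the black line and bars give the mean and SD of the 3 locations with more than 1 tumor. The cheek tumors have the lowest mean in all 10 panels, and in the Cd274 panel they lie below every retro-orbital and meninges tumor.

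Read by tumor, the genes did not peak together. Retro-orbital tumor 4 held the highest value of 4 genes (Cd3e, Cd4, Foxp3 and Nkg7), retro-orbital tumor 2 of 2 genes (Gzmb and Prf1), retro-orbital tumor 3 of 2 genes (Cd274 and Ctla4), meninges tumor 1 of Pdcd1 and meninges tumor 2 of Cd8a. In retro-orbital tumor 4, 8 of the 10 genes reached 1 RPKM, and in cheek tumors 2 and 3 only 1 did, which was Cd4 in both. The sum of the 10 genes ran from 2.89 RPKM in cheek tumor 2 to 47.9 RPKM in retro-orbital tumor 4.

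**Figure D2:**
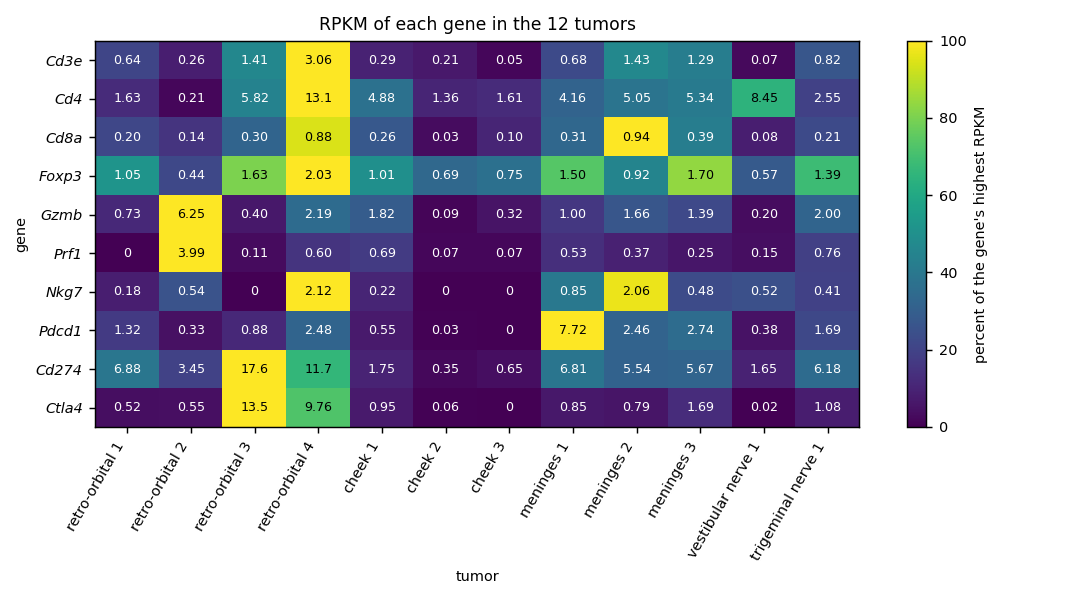
RPKM of the 10 genes (rows) in the 12 tumors (columns), with the value printed in each cell and the color giving the percent of that gene's highest RPKM. Yellow cells mark the peak of each gene, 8 of which fall in the retro-orbital tumors 2, 3 and 4 and 2 in the meninges tumors 1 and 2.

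Differences among retro-orbital, cheek and meninges tumors were tested with limma on log2(RPKM + 1) over the 14745 genes that reached 1 RPKM in 3 or more of these 10 tumors. The vestibular and trigeminal tumors, 1 of each, were left out of this test. Of the 10 members, 7 passed the filter, and Cd8a, Prf1 and Nkg7 did not. None of the 7 was called at an adjusted p under 0.05, against 0.0407% of all genes tested (6 genes), and Cd8a, Prf1 and Nkg7 were not called in the fit without a filter, against 0.0444% of 22520 genes. Between pairs of locations, 0 members were called, against 0.0203% of genes for meninges and retro-orbital, 0.0271% for cheek and retro-orbital and 0.0475% for meninges and cheek tumors. At an unadjusted p under 0.05, 2 of the 7 were counted, Pdcd1 and Cd274, against 14.3% of all genes tested.

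Cd274 was 2.39 lower in the cheek than in the retro-orbital tumors on the log2(RPKM + 1) scale (SE 0.46, adjusted p = 0.173, limma), and 1.94 higher in the meninges than in the cheek tumors (SE 0.49, adjusted p = 0.142, limma). The difference of -0.45 between meninges and retro-orbital tumors (SE 0.46, adjusted p = 0.757, limma) was smaller than the spread between tumors. Pdcd1 was 2.05 higher in the meninges than in the cheek tumors (SE 0.46, adjusted p = 0.116, limma) and 1.19 higher than in the retro-orbital tumors (SE 0.43, adjusted p = 0.514, limma). Both genes thus differed in each meninges tumor from each cheek tumor, by an amount that the adjustment over all genes did not pass. In an exact permutation test of each gene alone, two-sided over the 4200 ways to assign the 10 tumors to the 3 locations, the unadjusted p was 0.00762 for Cd274 and 0.00762 for Pdcd1, where the smallest possible value was 0.000476. With only 1 tumor kept for each set of shared title digits (8 tumors), the exact p was 0.0381 for Cd274 and 0.0714 for Pdcd1, and the smallest possible value was 0.00476. The first tumor in order of deposit was kept, which left out cheek tumor 3 and meninges tumor 1. Meninges tumor 1 held the highest Pdcd1 level, so the Pdcd1 value depends on which tumor was kept.

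The other members gave an exact permutation p, unadjusted over the 10 genes tested, of 0.134 for Cd3e, 0.186 for Nkg7, 0.204 for Cd8a, 0.206 for Ctla4, 0.406 for Foxp3, 0.489 for Gzmb, 0.689 for Cd4 and 0.856 for Prf1. The largest location difference of Ctla4, 1.78 between retro-orbital and cheek tumors, had an SE of 0.81 (adjusted p = 0.429, limma). With the title start as a covariate, the difference between retro-orbital and cheek tumors was 0.21 for Ctla4, 0.28 for Cd3e (0.84 without it), 0.11 for Gzmb (0.78 without it) and 1.43 for Cd274. Cheek tumors 2 and 3 share their title start with the vestibular tumor and with no other, so in this fit the cheek level rests on cheek tumor 1. Without retro-orbital tumor 3, Ctla4 reached 1 RPKM in too few tumors to be tested. Without that tumor, Cd274 was 2.06 higher in the retro-orbital than in the cheek tumors.

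All 10 members had their lowest location mean in the cheek tumors, against 40.2% of the 22520 genes above 0 in these tumors. For 5 of the 10 (Cd3e, Cd8a, Nkg7, Pdcd1 and Cd274) every meninges tumor was above every cheek tumor, against 16.9% of these genes. Every cheek tumor was below every retro-orbital tumor for 1 of the 10 (Cd274), against 3.97% of genes. No member separated the meninges from the retro-orbital tumors, against 7.09% of genes with all meninges tumors higher and 1.69% with all lower. Over all genes tested, the median difference was 0.16 between meninges and cheek, 0.13 between meninges and retro-orbital and -0.02 between cheek and retro-orbital tumors. Beside these medians, Foxp3 was 0.37 (SE 0.33) and Cd4 0.82 (SE 0.79) higher in the meninges than in the cheek tumors, and after quantile normalization the difference of Foxp3 was -0.017. For Foxp3 the order of the locations therefore depended on the scaling, and it cannot be given a direction.

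Levels of the members moved together across the 12 tumors in part. Cd3e and Cd8a had Pearson's r = 0.86 (permutation p = 0.00011, adjusted p = 0.00132 over 12 relations) and Spearman's rho = 0.90 (permutation p = 0.00012, adjusted p = 0.00144), and r was 0.77 without the 2 tumors farthest from the median of Cd3e. Cd3e and Foxp3 had r = 0.82 (permutation p = 0.00118, adjusted p = 0.0036) and rho = 0.78 (permutation p = 0.00435, adjusted p = 0.0104), with r = 0.75 without the 2 farthest tumors. The plots of Cd3e against both genes show a rise over the whole range, with the cheek and vestibular tumors at the lower end.

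Cd274 and Ctla4 followed Cd3e as well. Cd3e and Cd274 had r = 0.82 (permutation p = 0.0012, adjusted p = 0.0036) and rho = 0.78 (permutation p = 0.00396, adjusted p = 0.0104), with r = 0.80 without the 2 farthest tumors. Cd3e and Ctla4 had r = 0.82 (permutation p = 0.00051, adjusted p = 0.00306) and rho = 0.84 (permutation p = 0.0011, adjusted p = 0.0066), with r = 0.67 without the 2 farthest tumors. With any 1 tumor left out, r stayed at 0.78 or above for Cd274 and at 0.71 or above for Ctla4. For Pdcd1 the relation was less stable. Its r with Cd3e was 0.62 (permutation p = 0.0322, adjusted p = 0.0482) and rho 0.79 (permutation p = 0.00328, adjusted p = 0.0104), with r = 0.58 without the 2 farthest tumors, and with 1 tumor left out r was 0.55 to 0.85 and the adjusted p was above 0.05 in 9 of 12 fits.

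Among the cytotoxic genes, Gzmb and Prf1 showed no relation to Cd3e that passed the test. Cd3e and Gzmb had r = 0.26 (permutation p = 0.409, adjusted p = 0.446) and rho = 0.50 (permutation p = 0.105, adjusted p = 0.14), with r = 0.04 without the 2 farthest tumors. Cd3e and Prf1 had r = -0.06 (permutation p = 0.874, adjusted p = 0.874) and rho = 0.29 (permutation p = 0.369, adjusted p = 0.402), with r = -0.26 without the 2 farthest tumors. Without retro-orbital tumor 2, the tumor with the Gzmb and Prf1 peak, r was 0.63 for Gzmb and 0.36 for Prf1, so the low r depends on that tumor. Nkg7 had r = 0.64 with Cd3e (permutation p = 0.0249, adjusted p = 0.0427) and rho = 0.48 (permutation p = 0.118, adjusted p = 0.142), and r was 0.31 without the 2 farthest tumors, so the relation rests on them. With 1 tumor left out, the adjusted p for Nkg7 was above 0.05 in 7 of 12 fits.

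Cd4 had r = 0.59 with Cd3e (permutation p = 0.043, adjusted p = 0.0574) and rho = 0.57 (permutation p = 0.0556, adjusted p = 0.0953), and r was 0.32 without the 2 farthest tumors. With 1 tumor left out r was 0.38 to 0.81, the highest without the vestibular tumor (adjusted p = 0.00653, permutation test). Cd4 and the macrophage gene Cd68 had r = -0.38 (permutation p = 0.218, adjusted p = 0.262) and rho = -0.20 (permutation p = 0.541, adjusted p = 0.541), with r = -0.44 without the 2 tumors farthest in Cd68. That relation was not stable, with r = -0.74 without retro-orbital tumor 4 (adjusted p = 0.0204, permutation test) and r = 0.20 without retro-orbital tumor 2. Ptprc, which encodes the pan-leukocyte protein CD45, had r = 0.76 with Cd3e (permutation p = 0.00403, adjusted p = 0.00806) and rho = 0.74 (permutation p = 0.00778, adjusted p = 0.0156), with r = 0.53 without the 2 tumors farthest in Ptprc. Irf1, an interferon-induced transcription factor, had r = 0.75 with Cd274 (permutation p = 0.00393, adjusted p = 0.00806) but rho = 0.53 (permutation p = 0.0795, adjusted p = 0.119), and r was 0.32 without the 2 farthest tumors, so that relation rests on them. No location held 6 tumors, so no relation was computed within a location, and differences between locations and relations within them cannot be told apart. The title start separated the Cd3e levels as well. Cd3e was at 0.0527 to 0.213 RPKM in tumors of title start 10, at 0.261 to 0.683 in title start 09 and at 0.822 to 3.06 in title start 16. No title start held 6 tumors, so its part in the relations with Cd3e cannot be told apart either. With 1 tumor for each set of shared title digits, 6 of the 12 relations had an adjusted p under 0.05, against 8 over the 12 tumors.

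**Figure D3:**
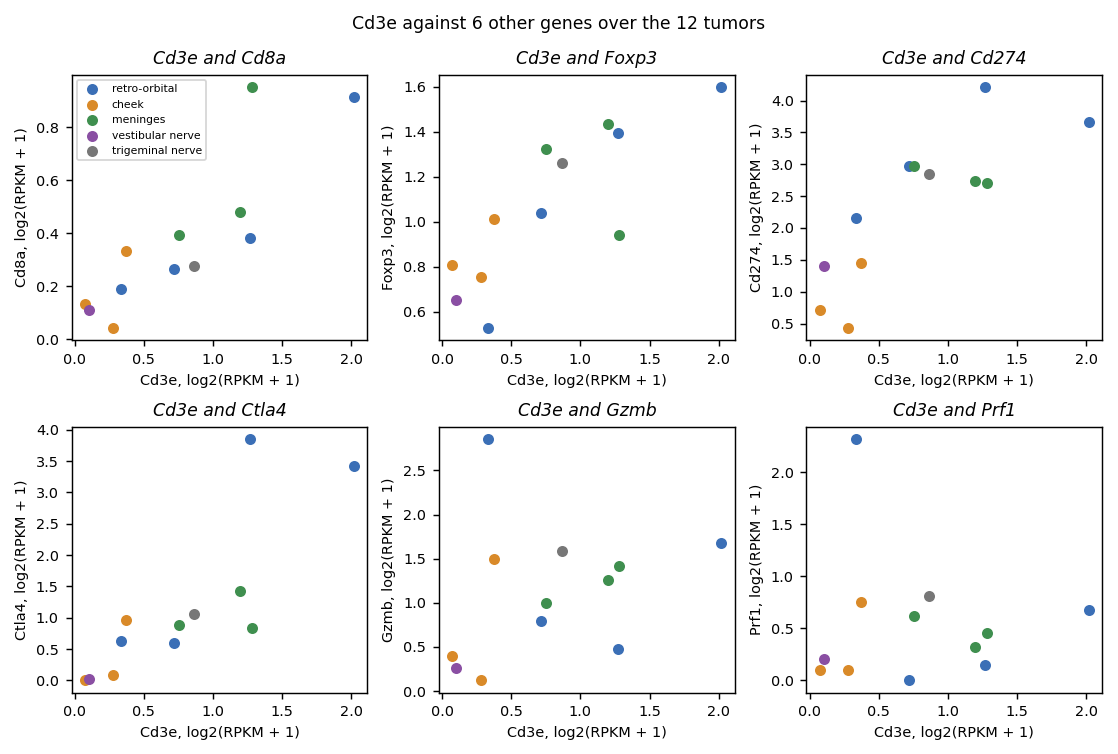
Cd3e on the horizontal axis against 6 other members on the vertical axes, all as log2(RPKM + 1), with 1 point per tumor colored by location. Cd8a, Foxp3, Cd274 and Ctla4 rise with Cd3e, while in the Gzmb and Prf1 panels the highest point is retro-orbital tumor 2, which is low in Cd3e.

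Among 15043 genes, those whose log2(RPKM + 1) pattern over the 12 tumors was most like that of Cd3e were Cd2 (r = 0.97), an adhesion receptor of T and natural killer cells, Rnase6 (0.97), Stat4 (0.95), Lck (0.95), the kinase that starts T cell receptor signalling, and Itgal (0.95), the leukocyte integrin chain CD11a. For Cd274 they were Kif21b (r = 0.94), Itgb7 (0.93), an integrin chain of gut-homing lymphocytes, Ccdc88b (0.92), Ssh1 (0.92) and Sft2d2 (0.92). These are the highest of many correlations over tumors that share their location and library, and they are given as a description without a test.

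Other genes of the same cells were read from lists compiled by function. Of 12 further genes of the T cell receptor complex and its signalling, 9 passed the filter. None was called in either direction between any pair of locations. All 9 had lower means in the cheek than in both other locations. Of all genes tested, 61.9% were lower in the cheek than in the meninges and 51.4% lower than in the retro-orbital tumors. The median difference of the 9 was 0.90 between meninges and cheek and -1.05 between cheek and retro-orbital tumors. Across the 3 locations, 2 of the 9 had an unadjusted p under 0.05 (limma), against 14.3% of all genes tested. Cd3g, another CD3 subunit, had the largest difference between meninges and cheek tumors of the list, 1.72 (adjusted p = 0.273 for that difference, limma).

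Of 15 genes of killer T cells, natural killer cells and their effectors, 5 passed the filter, 0 were called, and the median difference between meninges and cheek tumors was 0.88. Ccl5, a chemokine of activated T cells with the highest median of the list (26.4 RPKM), went the other way, with -0.27 (adjusted p = 0.871 for that difference, limma). Ifng, which encodes interferon gamma, stayed at or below 0.372 RPKM in all 12 tumors. Of 10 genes of regulatory and helper T cells, 8 passed, 0 were called, and the median difference between meninges and cheek was 0.64. Bcl6, a factor of follicular helper T cells and germinal center B cells, had the highest median of that list, 6.78 RPKM. Of 14 other checkpoint receptors and ligands, 12 passed and 0 were called. Across the 3 locations, 4 of the 12 had an unadjusted p under 0.05 (limma), against 14.3% of all genes tested. Without meninges tumor 2, 1 gene of this list, 4632428N05Rik (the older symbol of Vsir, which encodes the checkpoint molecule VISTA), was called lower in the cheek than in the retro-orbital tumors, by -1.71 (adjusted p = 0.0447, limma). In that fit 5 of all 14572 genes tested were called between these locations. Lgals9, which encodes the TIM-3 ligand galectin-9, was both the most abundant (median 37.9 RPKM) and the most different between meninges and cheek tumors, by 3.36 (adjusted p = 0.122 for that difference, limma).

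Genes of the interferon gamma response also had their lowest means in the cheek tumors. Ifng itself was low throughout, with a mean of 0.010 RPKM in the retro-orbital, 0.028 in the cheek and 0.186 in the meninges tumors. Of the genes of this response, only Irf1 was set against Cd274 across the 12 tumors, as given above. Pearson's r was 0.75, and 0.32 without the 2 tumors farthest in Irf1. A link between the response as a whole and the Cd274 level was not tested. Of 12 genes of the interferon gamma response and antigen presentation, 11 passed the filter and 0 were called. All 11 were lower in the cheek than in both other locations, against 61.9% of all genes for the meninges and 51.4% for the retro-orbital tumors. Across the 3 locations, 8 of the 11 had an unadjusted p under 0.05 (limma), against 14.3% of all genes. The median differences were 1.88 between meninges and cheek and -1.27 between cheek and retro-orbital tumors. B2m, the light chain of MHC class I, had the highest median of the list at 1875 RPKM, and Psmb9, an immunoproteasome subunit, the largest difference between meninges and cheek, 2.76 (adjusted p = 0.143 for that difference, limma). Without cheek tumor 1, the cheek group is left with the 2 tumors that share title digits. In this fit 6 genes of the list, among them Irf1, Psmb8, Psmb9, Nlrc5 and Gbp2, were called higher in the meninges than in the cheek tumors. The difference was 2.36 for Irf1 (adjusted p = 0.0182, limma) and 3.48 for Psmb9 (adjusted p = 0.0301, limma). Of all 14530 genes tested there, 527 were called between meninges and cheek tumors, 276 of them higher in the meninges, and 147 between cheek and retro-orbital tumors. In that fit Irf1 and Gbp2 were also called lower in the cheek than in the retro-orbital tumors, while Cd274 itself was not called (adjusted p = 0.0565 against the meninges and 0.0542 against the retro-orbital tumors, limma). Without cheek tumor 2 or without cheek tumor 3, no gene at all was called between locations. Of 9 T cell attracting chemokines and their receptors, 6 passed and 0 were called, with a median difference of 2.24 between meninges and cheek. Cxcl16, the ligand of the chemokine receptor CXCR6, had the highest median, 45.5 RPKM. Cxcl11, a ligand of CXCR3, was 5.41 higher in the meninges than in the cheek tumors (adjusted p = 0.111 for that difference, limma).

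All 5 pan-leukocyte genes were lower in the cheek than in both other locations, against 61.9% of all genes for the meninges and 51.4% for the retro-orbital tumors. Their median differences were 1.04 between meninges and cheek and -1.32 between cheek and retro-orbital tumors. Their summed level was 59.8 to 92.4 RPKM in the cheek, 127 to 302 in the retro-orbital (184 to 302 without retro-orbital tumor 3) and 151 to 284 in the meninges tumors. Of the 12 macrophage genes, 10 were higher in the meninges than in the cheek and 11 lower in the cheek than in the retro-orbital tumors, against 61.9% and 51.4% of all genes tested. Genes of glia and Schwann cells were higher in the meninges than in the cheek as well, with a median difference of 2.87, and their summed level was 123 to 401 RPKM in the meninges, 3.50 to 266 in the retro-orbital (3.50 to 39.3 without retro-orbital tumor 3) and 10.1 to 22.9 in the cheek tumors. Their part in the member levels was not tested. Of the B and plasma cell list, Ms4a1 and Pax5 were at or below 0.351 RPKM in all tumors, but the summed level of the list was 261 RPKM in meninges tumor 2, of which Igj (the older symbol of Jchain), the joining chain of antibodies, made up 240 RPKM, against 0.581 to 10.2 RPKM in the other 9 tumors of the 3 locations. Its part in the members of that tumor, which had the highest Cd8a, was not tested. The endothelial list differed by 0.12 between meninges and cheek, near the median of all genes. Of the remaining lists, the median difference between meninges and cheek was 0.76 for dendritic cells, 2.07 for the 2 B and plasma cell genes that passed, -0.64 for neutrophils and mast cells, 0.16 for neurons and -0.96 for skeletal muscle, and the 1 erythroid gene that passed differed by -0.12, with 0 genes called in any of them. Without cheek tumor 1, 1 pan-leukocyte gene, 2 glial, 1 neuronal and 2 muscle genes were called between meninges and cheek tumors, against 527 of all 14530 genes tested. Without retro-orbital tumor 3, 2 glial genes were called between these locations, against 65 of all 14445 genes tested.

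**Figure D4:**
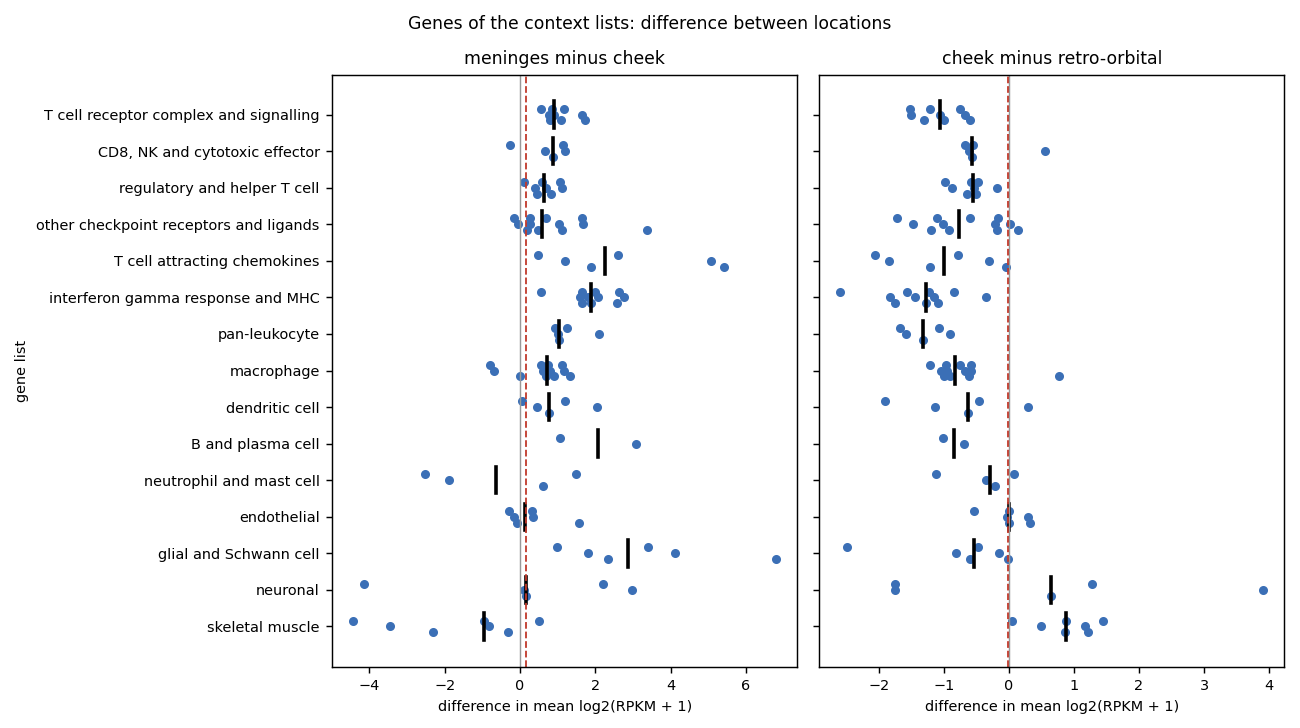
Difference in mean log2(RPKM + 1) between meninges and cheek tumors (left) and between cheek and retro-orbital tumors (right) for the genes of 15 lists that passed the filter. Each point is 1 gene, the black bar is the list median and the red dashed line the median of all 14745 genes. The T cell receptor, interferon gamma and pan-leukocyte lists lie to the right of the dashed line on the left panel and to its left on the right panel.

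Promoter sequence was looked at for letters that interferon-activated factors bind. RefSeq windows of 250 bases before the start site (GRCm38.p6) were found for 9 of the 10 members, with 2 windows for Foxp3 and none for Cd4. The interferon-stimulated response element, searched as GAAA, any 2 bases and GAAA again, was in no member window on either strand, and in 2.98% of the 32851 windows of all genes. The letters TTCNNNGAA, the palindrome read by STAT dimers, were in the Nkg7 window and in 1 of the 2 Foxp3 windows, and in 7.02% of all windows. Both stretches are shown because they hold the only matches among the members. The capitals mark the match, 10 bases of each flank are included, and both run on the plus strand, at chr7:43436908-43436936 for Nkg7 and at chrX:7580334-7580362 for Foxp3.
Nkg7: ccccaaggtcTTCCAGGAAaccagttgtc
Foxp3: gagctctgttTTCCAAGAAcgggcattag
A match describes the letters and not a bound site. Cd274 and Pdcd1, the members with the largest differences between locations, had neither motif in their windows, which says only that these letters are not in those 250 bases.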

How the data were processed

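RNA of 12 tumors was sequenced by the authors from stranded, ribosome-depleted libraries. Per the labels and the study's methods, reads were aligned to mm10 with STAR, uniquely mapped fragments were counted on RefSeq genes with HTSeq, and RPKM was what the authors deposited, with 1 value for each gene in a tumor. Which transcript length was used, and whether counting used strand, is not given in the sources used here. Of 24060 rows, 27 bear a date where the gene name should stand, and none of these was named.

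Groups are the locations in the labels. The tests were limma 3.58.1 (R 4.3.3, trended and robust) on log2(RPKM + 1), a scale that understates changes of low genes, on genes that reached 1 RPKM in 3 or more of the 10 tumors fitted, with Benjamini-Hochberg adjustment at 0.05, exact permutation tests per gene, and permutation tests of correlations (100000 resamples, two-sided). Values of genes that failed the filter come from the fit without a filter. In simulated data, 26% of genes changed by 1, 60% by 2, 78% by 3 and 94% by 4 on the log2 scale were recovered in the test across the 3 locations over 14745 genes. The changes were put into the meninges tumors only, with independent noise for each tumor. Changes in the cheek tumors and a likeness of tumors with shared title digits were not simulated. Intervals and limits of 3 fragments cover counting error only. Plots and permutations used Python 3.11.15, numpy 2.4.6 and matplotlib 3.10.9.

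The members and the lists were chosen with earlier results of these data known. All 10 members are named. From each list the gene with the highest median and the genes past the threshold were to be named. The genes with the largest difference in a list, Ncr1, Ifng and the B cell markers were named after their values were seen. Varied were the pseudocount, filter, normalization, variance prior, tumors included and tumors sharing title digits.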

Additional observations from a re-analysis of the deposited data

How the results depend on the processing

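No member was called in any of the 19 fits, and the lowest adjusted p of the test across the 3 locations was 0.0713, for Cd274 without cheek tumor 1. Across settings that adjusted p ranged up to 0.875 for Cd274 and from 0.11 to 0.875 for Pdcd1. Of 126 repeated member differences between the highest and the lowest location, 3 reversed, Cd4 with the title start as a covariate (-1.07) and Foxp3 with that covariate (-0.029) and after quantile normalization (-0.017), and the exact permutation p of Pdcd1 rose to 0.0714 with 1 tumor per title stem, an alternative chosen after seeing the data, as was the same choice for the relations. In the exact test that choice left out cheek tumor 3 and meninges tumor 1, the tumor with the highest Pdcd1. The cause of these shifts was not tested. That covariate also lowered the retro-orbital minus cheek difference of Ctla4 from 1.78 to 0.21, Cd274 from 2.39 to 1.43, Cd3e from 0.84 to 0.28 and Gzmb from 0.78 to 0.11. The number of all genes called across the 3 locations, 6, was 10 without a filter, 15 with a filter at 0.1 RPKM, 19 without a variance trend, and 0 with the title covariate or 1 tumor per title stem. For meninges against retro-orbital, 3 became 7, 9 and 6 under the first 3 of these settings, 1 with the covariate and 0 with 1 tumor per stem. For cheek against retro-orbital, 4 became 2 without a filter, 2 with the covariate and 0 with 1 tumor per stem. For meninges against cheek, 7 became 18, 17 and 22 under the same 3, 13 after quantile normalization, 2 at a pseudocount of 0.1, and 0 with the covariate or 1 tumor per stem. Leaving out 1 tumor at a time moved these counts from 0 to 198 across the 3 locations, 0 to 41 for meninges against retro-orbital, 0 to 147 for cheek against retro-orbital and 0 to 527 for meninges against cheek, and each highest count but the second came without cheek tumor 1, when the cheek group was left with 2 tumors that share title digits. The second came without retro-orbital tumor 3. Across the 3 locations 0 genes were called without cheek tumor 2, cheek tumor 3 or meninges tumor 1. The number of relations with an adjusted p under 0.05, 8 of 12, was 5 to 8 with 1 tumor left out, lowest without cheek tumor 2. No paired analysis was possible because the replicate numbers only follow the order of deposit. Depth limits Cd3e, Prf1, Nkg7, Pdcd1 and Ctla4, each at or under 3 fragments in 2 or 3 tumors, and Cd8a in 1. For Cd3e, Prf1, Nkg7 and Cd8a these are the fewest fragments that the values allow.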
